A study of Mus musculus with 12 samples.

Results

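The genes described here are 10 members of the VEGF and angiopoietin signalling systems of blood vessels, Vegfa, Vegfb, Kdr, Flt1, Tek, Tie1, Angpt1, Angpt2, Nrp1 and Nrp2, chosen by symbol. All 10 were found among the 35976 genes listed in mouse scar RNA-seq, and all 10 were among the 18853 genes with enough counts to be tested. The libraries came from scars of male mice 8 to 12 weeks old, with n = 3 in each of 4 groups. Mice were Tem1WT/WT or Tem1lacZ/lacZ, the latter carrying a lacZ reporter in place of the single exon of Cd248 (the gene of TEM1, or endosialin), after 10 generations of backcrossing to C57BL/6J. The gene is lost in every cell of these mice, so the comparison of genotypes is not limited to 1 cell type. All mice had a 1.5-cm wound in the back skin and, after 6 days, a plastic device over it, which either pulled the scar by 1 mm per day to 8 mm in total (traction) or stayed at its length (sham).

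VEGF-A binds the tyrosine kinase receptors VEGFR2 (Kdr), which carries most of its signal in endothelial cells, and VEGFR1 (Flt1), which binds it tightly and signals weakly. Neuropilins (Nrp1, Nrp2) are co-receptors that also bind class 3 semaphorins. Angiopoietin-1, made largely by cells around vessels, activates the endothelial receptor TIE2 (Tek) and keeps vessels quiet. Angiopoietin-2, released by endothelial cells themselves, mostly opposes it, and TIE1 is a partner receptor of TIE2 with no ligand of its own that is firmly established.

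The smallest library held 41536788 counts and the largest 64644293 (median 48173798). A member had between 200 and 10815 counts in a library, so counting error was small beside the common variation between mice, 34.2%. That need not hold where libraries lay very close, as for Vegfa in Tem1lacZ/lacZ traction scars (33.6 ± 1.01 CPM, SD, n = 3). Cd248 had at least 3883 counts in each Tem1WT/WT library and at most 13 in each Tem1lacZ/lacZ library, as labelled. Levels are given as CPM, counts scaled to a common library total with TMM factors. Replicate 1 of the Tem1WT/WT traction group stood apart from the others, with a summed level of 6 neutrophil marker genes of 6792 CPM against 609 and 287 CPM in the other libraries of its group and 62.0 to 97.6 CPM in Tem1WT/WT sham libraries. Values without that library are given beside the results it moves most. A call means an adjusted p under 0.05 in edgeR's two-sided quasi-likelihood test, with Benjamini-Hochberg adjustment over all 18853 genes.

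Sequence just upstream of the transcription start is shown for a receptor (Tie1), a co-receptor (Nrp2) and a ligand (Vegfa). RefSeq windows for GRCm38.p6 were found for 8 of the 10 members, with no entry for Angpt1 and Angpt2. The 250 bases before the start, 5′ to 3′, are given for the windows at the outer edge of the annotated gene, and capitals mark every match, on either strand, to 6 motifs. These were GGGCGG for the SP1 factor, ACGTG for the core of the hypoxia (HIF) element, CCGGAA for factors of the ETS family, TGANTCA for the AP-1 complex, AGATAA for factors of the GATA family and TATAAA for the promoter box of that name. The Tie1 window is chr4:118489850-118490099 on the minus strand, the Nrp2 window is chr1:62703067-62703316 on the plus strand and the Vegfa window is chr17:46032378-46032627 on the minus strand.
Tie1: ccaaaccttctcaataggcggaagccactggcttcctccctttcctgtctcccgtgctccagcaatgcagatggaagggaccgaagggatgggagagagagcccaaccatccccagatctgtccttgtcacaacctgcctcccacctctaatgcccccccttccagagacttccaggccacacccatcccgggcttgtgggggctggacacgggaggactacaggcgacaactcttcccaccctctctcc
Nrp2: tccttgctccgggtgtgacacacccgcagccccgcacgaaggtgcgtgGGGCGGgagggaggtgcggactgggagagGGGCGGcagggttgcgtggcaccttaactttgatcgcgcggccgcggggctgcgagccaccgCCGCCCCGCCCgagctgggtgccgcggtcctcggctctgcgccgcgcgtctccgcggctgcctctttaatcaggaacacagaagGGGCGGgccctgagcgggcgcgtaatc
Vegfa: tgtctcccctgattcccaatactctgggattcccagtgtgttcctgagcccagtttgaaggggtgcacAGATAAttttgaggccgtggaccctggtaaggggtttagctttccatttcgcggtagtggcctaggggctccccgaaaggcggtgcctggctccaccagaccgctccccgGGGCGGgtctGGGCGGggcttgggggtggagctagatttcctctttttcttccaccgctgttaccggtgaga
The Nrp2 window held 5 matches to GGGCGG, of which a pair overlapped, and the Vegfa window held 2. Of 32851 windows of the same length, 32.7% held GGGCGG. The Vegfa window also held 1 match to AGATAA, a motif found in 9.99% of windows. None of the 6 motifs was in the Tie1 window. The promoter box, HIF core, ETS and AP-1 motifs, found in 12.4%, 16.6%, 12% and 6.75% of windows, were in none of the 3. A second Vegfa window further into the gene, not printed, held 1 match to the HIF core and 1 to GGGCGG. The motifs were chosen after the values of the genes had been seen. A match is a string of letters and no evidence of a bound factor.

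The members were compared with each other only after division by exonic length (merged exons of GENCODE vM21). In Tem1WT/WT sham scars the order ran from Nrp1, at 13.4 ± 2.07 CPM per kb (SD, n = 3), through Tek at 11.9 ± 2.25 and Vegfa at 11.2 ± 3.54, to Angpt1 at 3.26 ± 0.804 and Flt1 at 1.87 ± 0.394 CPM per kb. The ranges of mean ± SD of neighbours in this order overlapped except for Angpt1 and Flt1, and in Tem1WT/WT traction scars those of all neighbours did. In Tem1WT/WT traction scars Angpt2 stood first, at 22.6 ± 9.01 CPM per kb, against place 5 among sham scars at 5.99 ± 1.84. Angpt2 was also first in Tem1lacZ/lacZ traction scars, at 15.7 ± 7.61 CPM per kb, and in place 4 in Tem1lacZ/lacZ sham scars, at 5.97 ± 0.742. Vegfa was in place 2 among Tem1WT/WT traction scars, at 20.8 ± 5.78 CPM per kb, and in place 6 among Tem1lacZ/lacZ traction scars, at 7.84 ± 0.236.

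**Figure D1:**
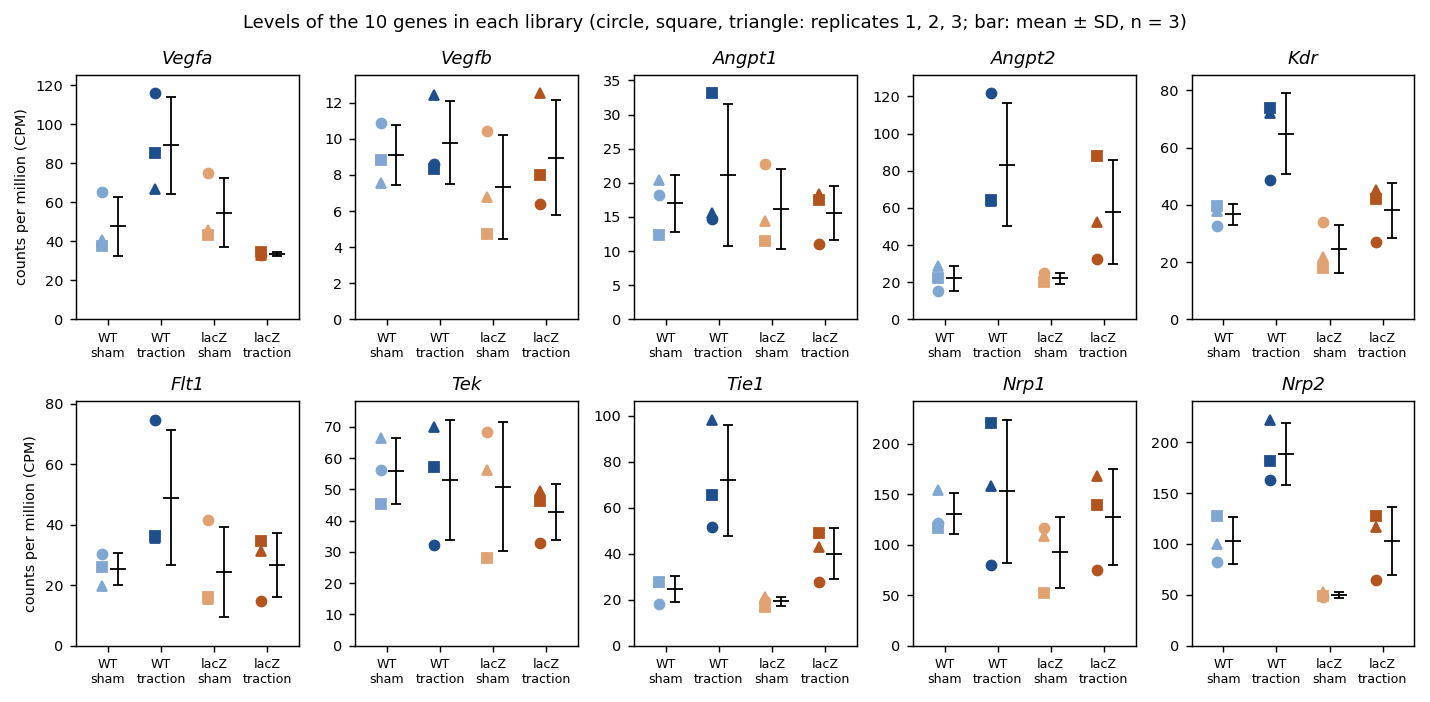
Level of each of the 10 genes in every library, in CPM on an axis from 0, by group (n = 3). Points are libraries, with replicate 1 as a circle, 2 as a square and 3 as a triangle, and bars are means with SD. Angpt2, Tie1 and Nrp2 are higher in every traction library than in any sham library of the same genotype. Of all genes tested, 35.7% had no overlap in Tem1WT/WT mice and 12.9% in Tem1lacZ/lacZ mice, in either direction. Vegfa is higher with traction in Tem1WT/WT mice (66.7 to 116 CPM) and lower with traction in Tem1lacZ/lacZ mice (33.0 to 34.8 CPM).

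The first comparison asks what pulling does to these genes in scars with TEM1. Of the 10 members, Tie1 and Angpt2 rose with traction in Tem1WT/WT mice and none fell. In the same comparison 9.15% of all genes tested were called in either direction and 5.61% in the higher direction. A further 3 members had an unadjusted p under 0.05 (5 in all, against 31.4% of genes tested), and the libraries of the 2 groups did not overlap for 6 members, against 35.7% of genes tested. The median log2 fold change was 0.85 over the members and -0.01 over all genes. DESeq2, used as the alternative test, called 5 members (Vegfa, Kdr, Tie1, Angpt2 and Nrp2) and 21.6% of its genes.

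Among the ligands, Angpt2 (Entrez 11601, chromosome 8, 18690263 to 18741562) measured 15.2, 22.2 and 28.8 CPM in Tem1WT/WT sham replicates 1 to 3 and 122, 64.4 and 63.7 CPM with traction. Every traction library was above the highest sham library, and replicate 1 was the highest of all 12. Its log2 fold change was 1.91 (SE 0.38, edgeR adjusted p = 0.0288), a 3.77-fold rise. The gene lies within the span of Mcph1, on the opposite strand, and shares no exonic base with it. Angpt1 (Entrez 11600, chromosome 15, 42424667 to 42676977) measured 18.2, 12.3 and 20.4 CPM in sham scars and 14.7, 33.1 and 15.6 CPM with traction, so the groups overlapped (log2 fold change 0.32, SE 0.36, edgeR adjusted p = 0.583). Of its exonic length, 14.2% is shared with the antisense gene Gm17473, and the strand setting of the counting is not given in the sources used here, so reads of that stretch cannot be assigned with certainty.

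Vegfa (Entrez 22339, chromosome 17, 46016993 to 46032377) measured 65.2, 37.5 and 40.6 CPM in Tem1WT/WT sham scars and 116, 85.1 and 66.7 CPM with traction. The lowest traction library lay just above the highest sham library. The log2 fold change was 0.90 (SE 0.28), with an edgeR adjusted p of 0.0613, so the difference was not called. Replicate 1 of the traction group, the library with high neutrophil markers, held the highest value, and without it the log2 fold change was 0.65 (edgeR adjusted p = 0.172). Vegfb (Entrez 22340, chromosome 19, 6982472 to 6987651), a ligand of VEGFR1, was at 7.55 to 10.9 CPM in sham and 8.32 to 12.4 CPM in traction scars, with a log2 fold change of 0.11 and a 95% interval from -0.61 to 0.83.

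Among the receptors, Tie1 (Entrez 21846, chromosome 4, 118471191 to 118489849) measured 18.1, 27.9 and 27.8 CPM in Tem1WT/WT sham scars and 51.7, 65.7 and 98.4 CPM with traction. The groups were far apart, and the log2 fold change was 1.55 (SE 0.28, edgeR adjusted p = 0.0252), a 2.92-fold rise. Tek (Entrez 21687, chromosome 4, 94739086 to 94874976), which encodes the receptor that binds both angiopoietins, measured 56.2, 45.3 and 66.5 CPM in sham scars and 32.1, 57.0 and 70.0 CPM with traction. Its groups overlapped fully, with a log2 fold change of -0.08 and a 95% interval from -0.84 to 0.68, against 0.93 to 2.16 for Tie1.

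Kdr (Entrez 16542, chromosome 5, 75932827 to 75979072) measured 32.5, 39.5 and 38.0 CPM in Tem1WT/WT sham scars and 48.6, 73.9 and 71.9 CPM with traction. The groups did not overlap, and the log2 fold change of 0.82 (SE 0.27) had an edgeR adjusted p of 0.0707. Flt1 (Entrez 14254, chromosome 5, 147561604 to 147726438) measured 30.3, 25.9 and 19.7 CPM in sham scars and 74.8, 36.3 and 35.7 CPM with traction. Replicate 1 of the traction group was well above the other libraries, and the log2 fold change was 0.95 (SE 0.45, edgeR adjusted p = 0.178) with it and 0.49 (edgeR adjusted p = 0.504) without it.

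The co-receptors differed from each other. Nrp2 (Entrez 18187, chromosome 1, 62703317 to 62818692) measured 82.3, 128 and 99.8 CPM in Tem1WT/WT sham scars and 162, 182 and 222 CPM with traction, with no overlap, a log2 fold change of 0.87 (SE 0.25) and an edgeR adjusted p of 0.0507, just outside the threshold. Nrp1 (Entrez 18186, chromosome 8, 128358591 to 128505476) measured 122, 117 and 154 CPM in sham scars and 79.8, 221 and 158 CPM with traction. Its traction libraries held both the lowest and the highest value of the pair of groups (log2 fold change 0.23, 95% interval from -0.67 to 1.13).

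Summed levels of 14 blood endothelium markers, none of which was at 0 in any library, were higher with traction in both genotypes. They were 359 to 560 CPM in Tem1WT/WT sham libraries, 1076 to 1190 CPM in Tem1WT/WT traction libraries, 325 to 503 CPM in Tem1lacZ/lacZ sham libraries and 509 to 819 CPM in Tem1lacZ/lacZ traction libraries. With traction in Tem1WT/WT mice 11 of the 14 rose, against 5.61% of all genes tested, and the median over the list was a log2 fold change of 1.20. That count was 5 without Tem1WT/WT traction replicate 1 (median 1.28), 4 without Tem1lacZ/lacZ sham replicate 3, and 0 without Tem1WT/WT sham replicate 1 (median 1.04) or 2 (median 1.23) or with only the 6 libraries compared (median 1.20). Single markers lay between 0.71 and 1.60, a range that held Tie1 at 1.55, while Angpt2 at 1.91 was above it. Tek at -0.08, Vegfb at 0.11, Nrp1 at 0.23 and Angpt1 at 0.32 were below it. In Tem1lacZ/lacZ mice the markers lay between 0.39 and 1.22, and Vegfa was at -0.70. In these bulk samples more endothelial cells and more RNA per endothelial cell cannot be told apart, and the part of the endothelial markers in the members' differences was not tested.

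The calls rested on small margins. Tie1 lost its call without Tem1WT/WT sham replicate 1 (log2 fold change 1.36, edgeR adjusted p = 0.117) or 2 (1.67, edgeR adjusted p = 0.0869) and when only the 6 libraries compared were fitted (1.54, edgeR adjusted p = 0.0761). Angpt2 lost its call without Tem1WT/WT sham replicate 1 (1.70, edgeR adjusted p = 0.122) or 2 (1.94, edgeR adjusted p = 0.0901), without Tem1lacZ/lacZ sham replicate 3 (1.91, edgeR adjusted p = 0.0512), without Tem1WT/WT traction replicate 1 (1.52, edgeR adjusted p = 0.0523) and with only the 6 libraries (1.91, edgeR adjusted p = 0.075). Over all alternatives, DESeq2 included, the log2 fold change of Tie1 ran from 1.26 to 1.72 with adjusted p from 2.88e-05 to 0.117. That of Angpt2 ran from 1.52 to 2.15 with adjusted p from 8.26e-05 to 0.122. Over all genes edgeR called 1725 with all 12 libraries. It called 0 without Tem1WT/WT sham replicate 1 or 2 and with only the 6 libraries. Without Tem1lacZ/lacZ sham replicate 3 it called 169, and without Tem1WT/WT traction replicate 1 it called 360.

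**Figure D2:**
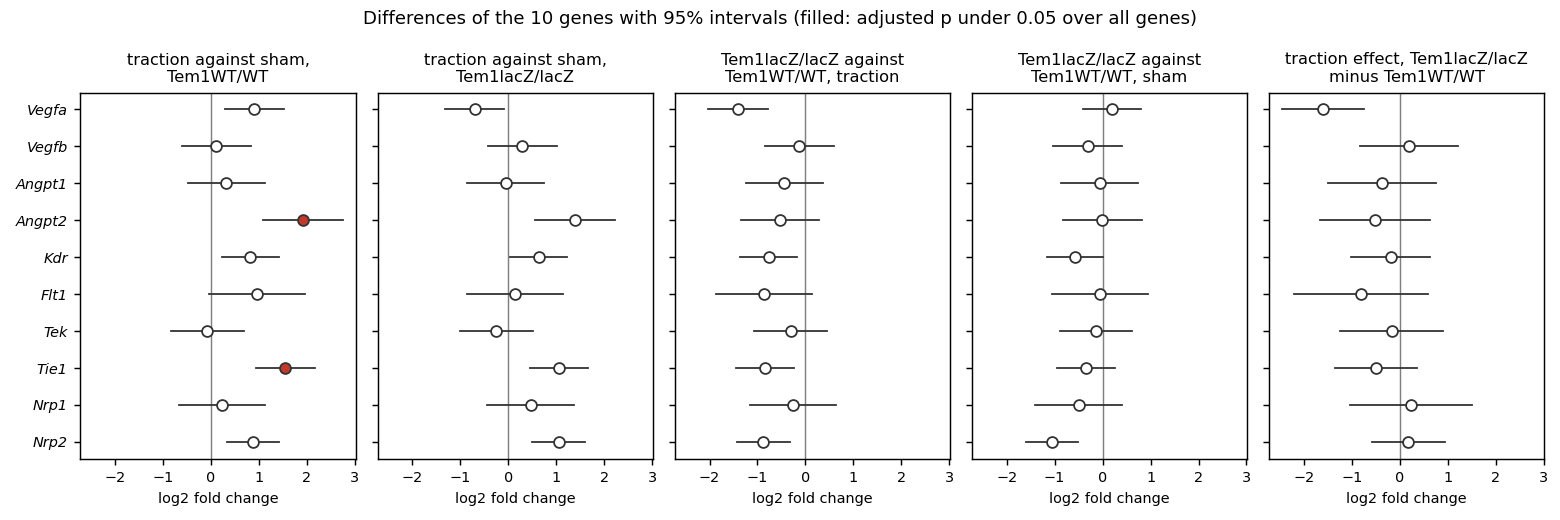
Log2 fold change of each member in 5 comparisons, with 95% intervals from the edgeR fit of all 12 libraries, and the zero line in grey. Filled points passed an adjusted p of 0.05 over all genes: only Angpt2 and Tie1 with traction in Tem1WT/WT mice are filled, and the Vegfa interval is above 0 with traction in Tem1WT/WT mice (0.29 to 1.51) and below 0 with traction in Tem1lacZ/lacZ mice (-1.31 to -0.09).

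The same pulling in Tem1lacZ/lacZ mice gave no called member, and 0% of all genes tested were called by edgeR in that comparison. Without adjustment 5 members had p under 0.05, against 8.12% of genes tested. DESeq2 called 28 genes (0.19%), none of them a member. The libraries did not overlap for 4 members, against 12.9% of genes tested. The median log2 fold change was 0.38 over the members and -0.01 over all genes.

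Angpt2 measured 25.2, 20.1 and 20.9 CPM in Tem1lacZ/lacZ sham scars and 32.7, 88.2 and 52.6 CPM with traction, with every traction library above every sham library (log2 fold change 1.39, SE 0.38, unadjusted p = 0.00353, edgeR adjusted p = 0.598). Tie1 measured 19.7, 17.0 and 21.1 CPM in sham scars and 27.7, 49.2 and 43.1 CPM with traction (log2 fold change 1.06, SE 0.28, unadjusted p = 0.00286, edgeR adjusted p = 0.598). Nrp2 measured 47.4, 49.2 and 52.6 CPM in sham scars and 64.7, 127 and 117 CPM with traction (log2 fold change 1.05, SE 0.25, unadjusted p = 0.00139, edgeR adjusted p = 0.598). Replicate 1 of the traction group was the lowest traction library for all 3 genes, and without it Nrp2 was called (log2 fold change 1.34, edgeR adjusted p = 0.0426). That fit called 73 of all genes, against 0 with all 12 libraries.

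Vegfa measured 75.1, 43.2 and 45.6 CPM in Tem1lacZ/lacZ sham scars and 33.0, 34.8 and 33.1 CPM with traction. Here every traction library lay below every sham library, the only member for which that was so in this comparison (log2 fold change -0.70, SE 0.28, unadjusted p = 0.0278, edgeR adjusted p = 0.598). Kdr measured 34.0, 17.8 and 21.9 CPM in sham scars and 26.9, 42.0 and 45.2 CPM with traction, and sham replicate 1 overlapped the traction range (log2 fold change 0.63, SE 0.27, unadjusted p = 0.0377, edgeR adjusted p = 0.601). The other 5 members, Vegfb, Flt1, Tek, Angpt1 and Nrp1, had log2 fold changes from -0.25 for Tek to 0.47 for Nrp1, and their groups overlapped.

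With the genotypes pooled, so that the mean of both traction effects was tested with 6 libraries in each arm, 4 members rose: Angpt2 (log2 fold change 1.65, SE 0.27, edgeR adjusted p = 0.0203), Tie1 (1.30, SE 0.20, edgeR adjusted p = 0.0203), Nrp2 (0.96, SE 0.18, edgeR adjusted p = 0.0216) and Kdr (0.73, SE 0.19, edgeR adjusted p = 0.0409). In that comparison 9.73% of all genes were called and 6.5% were called in the higher direction. These 4 genes are an endothelial ligand, its pathway's orphan receptor, a co-receptor and the main VEGF receptor. Tek had a log2 fold change of -0.16 with a 95% interval from -0.70 to 0.37, and Vegfa, whose estimates had opposite signs in the genotypes, one of 0.10 with an interval from -0.33 to 0.53. Of the 4, Angpt2, Tie1 and Nrp2 lost their calls without Tem1WT/WT sham replicate 1, Tem1lacZ/lacZ sham replicate 2 or Tem1lacZ/lacZ traction replicate 2, with edgeR adjusted p between 0.0522 and 0.0695, and Nrp2 also without Tem1lacZ/lacZ traction replicate 3 (0.91, edgeR adjusted p = 0.0538). Over all genes edgeR called 15, 0 and 17 without the first 3 of these libraries and 102 without the last, against 1835 with all 12. Kdr kept its call in only 4 of 12 leave-one-out fits, with log2 fold changes from 0.64 to 0.90.

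The study asks whether loss of TEM1 alters the pulled scar. Among traction scars no member was called between genotypes, where 0.106% of all genes were called by edgeR. All 10 members had lower estimates in Tem1lacZ/lacZ mice, and their median on the log2 scale was -0.65, against 0.01 over all genes. Unadjusted p was under 0.05 for 4 members, against 26.1% of genes tested, and libraries did not overlap for 5, against 26.6%. DESeq2 called 3 members (Vegfa, Tie1 and Nrp2) and 13.2% of its genes. In leave-one-out fits the members' median ran from -0.37 without Tem1lacZ/lacZ traction replicate 1 to -0.90 without replicate 2 of that group. Members with unadjusted p under 0.05 were then 2 and 5. In replicate 1 summed endothelial markers were at 509 CPM, against 819 and 795 CPM in replicates 2 and 3. Its summed keratinocyte markers were at 39744 CPM, against 13075 and 16590 CPM. This comparison shares its Tem1WT/WT traction libraries with the first one.

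Vegfa stood furthest apart, at 66.7 to 116 CPM in Tem1WT/WT and 33.0 to 34.8 CPM in Tem1lacZ/lacZ traction scars (log2 fold change -1.41, SE 0.28, unadjusted p = 0.00038, edgeR adjusted p = 0.0834). Without Tem1WT/WT traction replicate 2 it was called (-1.44, unadjusted p = 0.000819, edgeR adjusted p = 0.0279). That fit called 1421 of 19400 genes, against 20 of 18853 with all 12 libraries. Without replicate 1 of that group Vegfa was not called (-1.15, edgeR adjusted p = 0.167). Over all alternatives, DESeq2 included, adjusted p ran from 0.000583 to 0.295. Nrp2 was at 162 to 222 CPM against 64.7 to 127 CPM (-0.88, SE 0.25, edgeR adjusted p = 0.0952), Tie1 at 51.7 to 98.4 CPM against 27.7 to 49.2 CPM (-0.85, SE 0.28, edgeR adjusted p = 0.11) and Kdr at 48.6 to 73.9 CPM against 26.9 to 45.2 CPM (-0.77, SE 0.27, edgeR adjusted p = 0.122). Flt1 did not overlap either, at 35.7 to 74.8 CPM against 14.8 to 34.5 CPM (-0.87, SE 0.45, edgeR adjusted p = 0.248), and without Tem1WT/WT traction replicate 1 its log2 fold change was -0.38 (edgeR adjusted p = 0.634). Angpt2 overlapped, with an interval of the log2 fold change from -1.34 to 0.29 around -0.53, and its value without that library was -0.11. The 14 endothelial markers also had lower estimates, with a median of -0.51 and none called, and neutrophil markers were at 287 to 6792 CPM against 245 to 530 CPM. Medians of other marker lists in this comparison, with no gene called, were -0.97 for fibroblast, -0.55 for pericyte, 1.20 for hair follicle and 1.04 for skeletal muscle genes, and without Tem1WT/WT traction replicate 1 they were -0.46, -0.84, 1.08 and 2.62. Those of adipocyte, keratinocyte, lymphatic and macrophage genes were 1.14, 0.59, 0.20 and -0.30, and without that library 3.36, 0.40, 0.42 and -0.34. The part of any of these in the members' differences was not tested.

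Without traction edgeR called no member between the genotypes, and 0.0106% of all genes. Nrp2 was the member with unadjusted p under 0.05, against 11.7% of genes tested. It was at 82.3 to 128 CPM in Tem1WT/WT and 47.4 to 52.6 CPM in Tem1lacZ/lacZ sham scars, without overlap (log2 fold change -1.06, SE 0.25, unadjusted p = 0.00134, edgeR adjusted p = 0.409). DESeq2 called it (adjusted p = 0.0478) among 0.307% of its genes. Its genotype estimates without and with traction lay side by side at -1.06 and -0.88 on the log2 scale, and its traction effects of 0.87 and 1.05 differed by 0.18 (95% interval from -0.58 to 0.94). Nrp1 was the other member without overlap (26.8% of genes tested had none), but only just, with 117 to 154 CPM in Tem1WT/WT and 51.9 to 116 CPM in Tem1lacZ/lacZ scars (log2 fold change -0.50, SE 0.41, edgeR adjusted p = 0.629).

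Whether pulling acted differently on a member in each genotype was tested as an interaction. No member was called, 0% of all genes were called by edgeR, and DESeq2 called 69 genes (0.368%), none a member. Vegfa was the member with unadjusted p under 0.05, against 8.91% of genes tested, with a traction effect lower by 1.60 on the log2 scale in Tem1lacZ/lacZ mice (log2 difference -1.60, SE 0.39, unadjusted p = 0.00177, edgeR adjusted p = 0.548). For Angpt2 and Tie1, which were called in one genotype only, the traction effects differed by -0.52 (95% interval from -1.67 to 0.63) and -0.49 (-1.35 to 0.36), so a difference between genotypes was not shown. All the comparisons share libraries and are not independent of each other.

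Ratios within a library need no scaling between libraries. The ratio of Angpt2 to Angpt1 counts was 0.835, 1.81 and 1.41 in Tem1WT/WT sham scars and 8.29, 1.95 and 4.07 with traction. In Tem1lacZ/lacZ mice it was 1.10, 1.75 and 1.45 in sham scars and 2.96, 5.06 and 2.88 with traction. Every one of the 6 traction libraries was above every one of the 6 sham libraries, though Tem1WT/WT traction replicate 2 only just, since Angpt1 was high there. The log2 ratio was 0.43 ± 0.42 in sham and 1.91 ± 0.73 in traction scars (SD, n = 6), a difference of 1.48, with an exact permutation p of 0.005 within genotypes, two-sided, which is the smallest that 400 arrangements can give, and 0.01 after adjustment over the 2 ratios of the design. Within 1 genotype the differences were 1.65 and 1.32, where an exact test of 3 against 3 cannot go below p = 0.1. This ratio too was chosen with earlier results of these data known. Angpt2 was called with traction in the same libraries and Angpt1 was not, so the ratio is not evidence separate from the Angpt2 result.

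The ratio of Flt1 to Kdr was 0.518 to 0.930 in Tem1WT/WT sham, 0.491 to 1.54 in Tem1WT/WT traction, 0.704 to 1.22 in Tem1lacZ/lacZ sham and 0.548 to 0.822 in Tem1lacZ/lacZ traction scars. The log2 ratio differed by -0.18 between traction and sham (exact permutation p = 0.59, n = 6 in each arm), so no difference was shown. The groups overlapped, and Tem1WT/WT traction replicate 1 was the highest of the 12. The ratio of Tie1 to Tek was chosen after the values of both genes had been seen. The same permutation was run on it, outside the adjustment, but is not used as a test for that reason, and the ratio is given as a description. It was 0.287 to 0.615 in the 6 sham libraries and 0.846 to 1.61 in the 6 traction libraries.

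**Figure D3:**
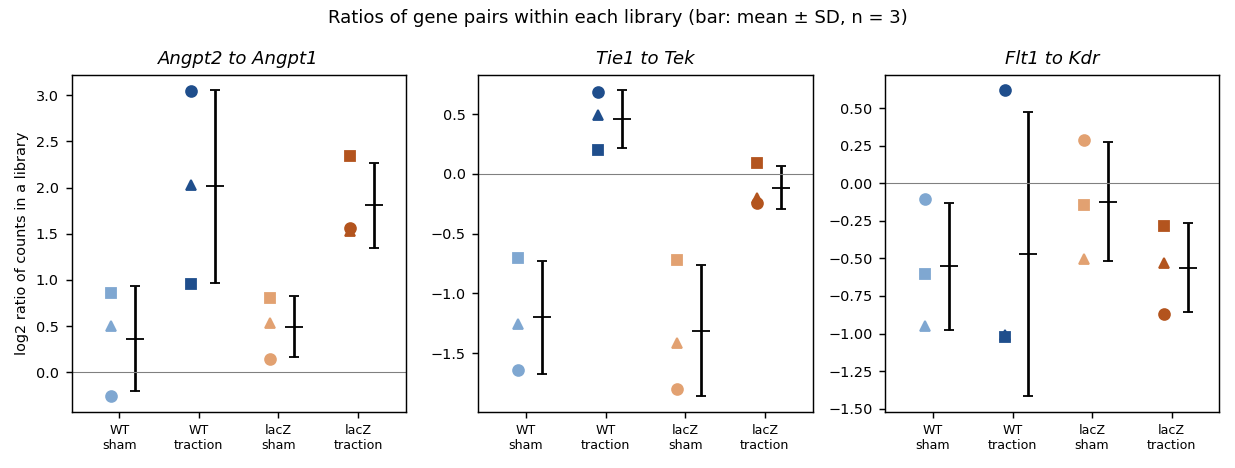
Log2 ratio of the counts of 2 genes in each library, by group (n = 3; symbols as replicates 1 to 3, bars as mean with SD), for Angpt2 to Angpt1, Tie1 to Tek and Flt1 to Kdr. The first 2 ratios are higher in all traction libraries than in all sham libraries, and the third overlaps between groups.

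The rest of the pathway was described through gene lists. With traction in Tem1WT/WT mice 5.61% of all genes tested were called higher and 9.15% in either direction. With traction in Tem1lacZ/lacZ mice edgeR called 0%, so no list could hold a call there. The interaction called 0% too, so a difference in response between genotypes was not shown for any list. The lists' counts of calls with traction in Tem1WT/WT mice rest on small margins too. Without sham replicate 1 or 2 of that genotype, or with only the 6 libraries compared, edgeR called 0 genes in all and so 0 in every list below. Of 8 other ligands, receptors and partners, 2 rose with traction in Tem1WT/WT mice and none fell (median log2 fold change 0.97). Pgf, a placental growth factor that binds VEGFR1, went from 2.58 ± 0.526 to 11.3 ± 8.54 CPM (log2 fold change 2.12, SE 0.45, edgeR adjusted p = 0.031), and to 1.28 (edgeR adjusted p = 0.0461) without traction replicate 1. Vegfc, a lymphatic growth factor, went from 2.42 ± 0.185 to 5.13 ± 1.11 CPM (1.09, SE 0.25, edgeR adjusted p = 0.0329). In Tem1lacZ/lacZ mice none of the 8 was called, with a median of 1.22, and Pgf measured 2.95 ± 0.599 CPM in sham and 2.20 ± 0.177 CPM in traction scars.

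Of 13 genes of sprouting endothelium, 7 rose with traction in Tem1WT/WT mice (median 1.41), against 5.61% of all genes tested. None was called in Tem1lacZ/lacZ mice (median 0.29), where 0% of all genes were called. Cxcr4, the receptor of the chemokine CXCL12, which neutrophils also carry, went from 17.5 ± 4.66 to 89.0 ± 41.3 CPM (log2 fold change 2.35, SE 0.33, edgeR adjusted p = 0.0184). Nid2, a basement membrane nidogen, went from 31.2 ± 13.8 to 142 ± 53.2 CPM (2.18, SE 0.46, edgeR adjusted p = 0.0311). Without Tem1WT/WT traction replicate 1, 5 of the 13 were called, and without Tem1lacZ/lacZ sham replicate 3, 3 were. Cxcr4 was also the one listed gene called between genotypes in traction scars, at 16.4 ± 1.72 CPM in Tem1lacZ/lacZ mice (-2.44, SE 0.33, edgeR adjusted p = 0.0257), and it stayed called without that library (-2.08, edgeR adjusted p = 0.0494).

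The counts in this paragraph stand against 5.61% of all genes tested called higher with traction in Tem1WT/WT mice, and 9.15% in either direction. Of 9 oxygen sensing genes, 4 rose in Tem1WT/WT mice (median 0.68). The largest were Epas1 (log2 fold change 1.75, SE 0.44, edgeR adjusted p = 0.0391) and Hif1a (1.51, SE 0.34, edgeR adjusted p = 0.0329), the alpha subunits of both main hypoxia-inducible factors. Without Tem1WT/WT traction replicate 1 none of the 9 was called, and the values were 1.14 (edgeR adjusted p = 0.0923) and 1.03 (edgeR adjusted p = 0.0619). Of 28 signalling proteins downstream of the receptors, 5 rose (median 0.36), led by the kinase gene Src (1.06, SE 0.23, edgeR adjusted p = 0.0326) and the adaptor gene Bcar1 (1.04, SE 0.26, edgeR adjusted p = 0.0381), and none was called without that library. Of 12 class 3 semaphorins and plexins, Plxnd1 rose (1.20, SE 0.32, edgeR adjusted p = 0.0428) and Sema3e, the ligand of the receptor it encodes, fell by 2.09 on the log2 scale (SE 0.29, edgeR adjusted p = 0.0184). Plxnd1 was not called without that library (1.15, edgeR adjusted p = 0.0838) and Sema3e was (-1.99, edgeR adjusted p = 0.0384). In Tem1lacZ/lacZ mice none of the genes on these lists was called with traction, where edgeR called 0% of all genes tested.

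Markers of other cells are set against the 5.61% of all genes tested called higher, and 9.15% in either direction, in the same comparison. Of these markers, 2 of 7 pericyte genes and 4 of 6 neutrophil genes rose with traction in Tem1WT/WT mice. In addition 1 of 5 fibroblast genes rose and 1 of 5 hair follicle genes fell. Without traction replicate 1 of that group the counts were 2 for pericyte, 1 for neutrophil and 0 for fibroblast and hair follicle genes, and the neutrophil median went from 4.78 to 2.21. None of 5 tested lymphatic, 4 keratinocyte, 4 macrophage or 4 adipocyte markers was called. The adipocyte median was -1.53, and -3.59 without that library, against -1.24 in Tem1lacZ/lacZ mice. None of 5 skeletal muscle markers was called either, but all 5 had unadjusted p under 0.05 with lower estimates (median -2.88), and 2 were called lower without that library (median -4.21). In Tem1lacZ/lacZ mice the skeletal muscle median was -0.52. The part of these cells in the members' differences was not tested.

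**Figure D4:**
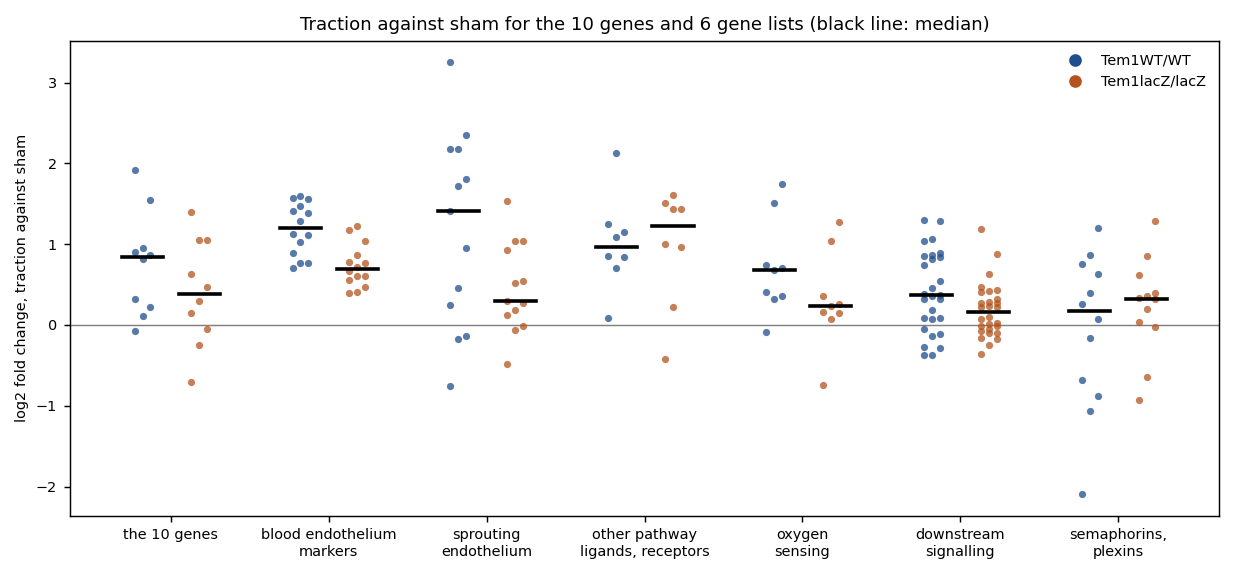
Log2 fold change with traction for the 10 genes and for each gene of 6 lists, Tem1WT/WT in blue and Tem1lacZ/lacZ in brown, with the median of each as a black line. Endothelial markers lie between 0.71 and 1.60 in Tem1WT/WT and between 0.39 and 1.22 in Tem1lacZ/lacZ mice, the 10 genes spread from -0.08 to 1.91 and from -0.70 to 1.39, and Sema3e is the lowest point.

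The genes with the most similar patterns over the 12 libraries were found among 13645 genes by the root mean square difference of log2 CPM, each gene centred on its own mean. Nrp2 had the closest neighbour of any member, Ttyh3, at 0.10, followed by Mex3d and Arhgef17, beside a spread of Nrp2 itself of 0.73. Kdr was nearest to Bcorl1, Dock1 and Igf2r (0.12 to 0.16, own spread 0.59), and Tie1 to Fkbp10, Impdh1 and Ckap4 (0.14 to 0.16, own spread 0.77), of which Fkbp10 encodes a collagen chaperone. Vegfa was nearest to Pygl and Hk2, enzymes of glycogen and glucose use, and to the transcription factor gene Bhlhe40 (0.22 to 0.27, own spread 0.58). Angpt2 had no neighbour closer than Gm13889, at 0.31, with Nek6 and Pear1 next (own spread 0.92). Tek was nearest to Ddr2, Fcgrt and Kdelc2 (0.15 to 0.20), Nrp1 to Ebf1, Fam13c and Stard9 (0.19 to 0.23), Flt1 to Nod1, Por and Stat5a (0.26 to 0.27), Vegfb to Zbtb46 and AI464131 (0.16 to 0.17) and Angpt1 to Gab3, C1s1 and Hfe (0.23 to 0.24). No member was among the 3 nearest genes of another.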

How the data were processed

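RNA-seq of scars from 12 mice was used. The authors deposited whole-number counts per gene and library, without normalization. Per the paper's methods and the submitters' processing notes, reads of stranded poly(A) libraries passed fastp 0.20.0, HISAT2 2.1.0 on GRCm38 and featureCounts 2.0.0. The annotation, strand setting and handling of reads with several matches are not given in the sources used here, and such reads may shift levels of overlapping genes.

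Counts were tested with edgeR 4.0.16 (TMM scaling, filterByExpr, robust glmQLFit with 4 group means, 8 residual degrees of freedom, Benjamini-Hochberg adjustment) in R 4.3.3. The common biological coefficient of variation was 34.2%. DESeq2 1.42.0, other scalings, no expression filter, a replicate block, fits of 6 libraries and leave-one-out fits were alternatives, and the scripts were tested on simulated data. Counts of list genes without single libraries were alternatives chosen after seeing the data. Ratios were tested by exact permutation. Gene positions and promoters came from RefSeq (GRCm38.p6), exonic lengths from GENCODE vM21, and plots from matplotlib with Python.

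The members, lists and tests were chosen with earlier results of these data known. The study also singled out Tie1 and Vegfa on these libraries, so their values are not independent evidence. Named list genes are, for each list, the 2 largest rises and 2 largest falls among those called with traction in Tem1WT/WT mice, and for each member the 3 genes nearest in pattern, of which 1 is not reported here. Each library was 1 mouse, and the time of harvest is not given in the sources used here. Markers of other cells are given as counts of genes called. No library was a copy of another in its own group, and pairs from different groups were not checked for this.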

Additional observations from a re-analysis of the deposited data

Results flagged for a closer look

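Vegfa was singled out because the traction libraries of the genotypes moved in opposite directions. All 3 lay above all 3 sham libraries in Tem1WT/WT mice, but only just (66.7 against 65.2 CPM). All 3 lay below all 3 sham libraries in Tem1lacZ/lacZ mice. Of all genes tested, 35.7% had no overlap in Tem1WT/WT mice and 12.9% in Tem1lacZ/lacZ mice, in either direction. The share apart in opposite directions was not counted. The gene was picked by this separation, so the test below is not separate evidence. The traction effect differed by -1.60 on the log2 scale (SE 0.39, 95% interval from -2.46 to -0.74). The test of that difference gave an unadjusted p of 0.00177 and an edgeR adjusted p of 0.548 over all genes, and DESeq2 gave an adjusted p of 0.0567. In the alternatives the difference ran from -1.89 to -1.26 with adjusted p from 0.0567 to 0.825. Without Tem1lacZ/lacZ sham replicate 1, the highest sham library at 75.1 CPM, the effect in Tem1lacZ/lacZ mice moved from -0.70 to -0.36. With 3 libraries in a group, single libraries were not tested for standing apart.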

How the results depend on the processing

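Members called with all 12 libraries had edgeR adjusted p from 0.0203 to 0.0409. They lost their calls in some alternatives and changed sign in none. Of 1060 alternative values over 60 member results, 966 kept their direction and side of the threshold, 28 lost it, 13 gained it and 53 changed sign. With traction in Tem1WT/WT mice, 2 members were called, against 5 by DESeq2, 4 with a replicate block, 0 with only the 6 libraries compared and 0 to 3 in leave-one-out fits. The count was 0 without sham replicate 1 or 2 of that genotype, and 1 without Tem1lacZ/lacZ sham replicate 3 or Tem1WT/WT traction replicate 1. In these fits edgeR called 0, 0, 169 and 360 of all genes, against 1725 with all 12 libraries. With traction in Tem1lacZ/lacZ mice leave-one-out fits gave 0 to 1, and between genotypes in traction scars 0 to 1, against 3 by DESeq2. The fits that gave 1 called 73 and 1421 of all genes, against 0 and 20 with all 12 libraries. Between genotypes in sham scars DESeq2 gave 1. Averaged over genotypes, the count of 4 ran from 0 to 4, with 0 without Tem1WT/WT sham replicate 1, Tem1lacZ/lacZ sham replicate 2 or Tem1lacZ/lacZ traction replicate 2, and 2 without Tem1lacZ/lacZ traction replicate 3. Over all genes edgeR called 15, 0 and 17 in the first 3 of these fits and 102 in the last, against 1835 with all 12 libraries. Where a fit left 2 libraries in a group, the spread was shared over groups. The cause was not tested.

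The Angpt2 to Angpt1 difference ran from 1.22 to 1.75 (exact permutation p from 0.005 to 0.01) and that of Flt1 to Kdr from -0.45 to -0.04 (p from 0.05 to 0.925) in leave-one-out tests. Upper quartile scaling moved the median of all genes with traction in Tem1WT/WT mice from -0.01 to -0.12. Replicate numbers were not taken to pair the samples, which were different mice. Of 18 pairs of same-numbered libraries 8 had a correlation of deviations over 0.1 (from -0.32 to 0.25), and 8 of 12 libraries correlated best with their own number. The labels do not say whether same-numbered libraries shared a step of handling, and that was not tested. With the replicate block, Vegfa (0.91, edgeR adjusted p = 0.0319) and Nrp2 (0.88, edgeR adjusted p = 0.035) were called with traction in Tem1WT/WT mice beside Tie1 and Angpt2. The replicate block moved the count averaged over genotypes from 4 to 3.

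Sign changes were among small values. Vegfb with traction in Tem1WT/WT mice was -0.0030 under upper quartile scaling, and Angpt2 between genotypes in sham scars 0.051 under that scaling and 0.0033 with the replicate block, from -0.0044. Leave-one-out ranges of the log2 values that changed sign follow. With traction in Tem1WT/WT mice they were -0.10 to 0.25 for Vegfb, -0.33 to 0.16 for Tek, -0.15 to 0.51 for Angpt1 and -0.12 to 0.52 for Nrp1. With traction in Tem1lacZ/lacZ mice they were -0.030 to 0.68 for Vegfb, -0.072 to 0.81 for Flt1, -0.51 to 0.065 for Tek and -0.22 to 0.31 for Angpt1. Between genotypes in traction scars they were -0.45 to 0.11 for Vegfb, -0.61 to 0.039 for Angpt1 and -0.54 to 0.10 for Nrp1. Between genotypes in sham scars they were -0.13 to 0.48 for Vegfa, -0.71 to 0.18 for Flt1, -0.43 to 0.14 for Tek, -0.41 to 0.12 for Angpt1 and -0.21 to 0.24 for Angpt2. For the interaction they were -0.15 to 0.58 for Vegfb, -0.34 to 0.17 for Kdr, -0.42 to 0.16 for Tek, -0.53 to 0.092 for Angpt1, -0.021 to 0.59 for Nrp1 and -0.023 to 0.48 for Nrp2. Averaged over genotypes they were -0.00995 to 0.27 for Vegfa and -0.10 to 0.31 for Angpt1.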

Other observations

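The list of other ligands, receptors and partners was looked at again after its values were seen, and no hypothesis is offered. It holds genes of the lymphatic arm of the VEGF system and others, such as Pgf, Angpt4 and Ptprb. In Tem1lacZ/lacZ mice 5 of these 8 genes had an unadjusted p under 0.05 with traction, against 8.12% of genes tested. All 5 were higher, and none passed the adjustment (edgeR adjusted p = 0.598 for each). Flt4, the receptor of VEGF-C and VEGF-D, went from 9.19 ± 1.00 to 24.9 ± 14.1 CPM (log2 fold change 1.44, unadjusted p = 0.0012), and Svep1, an extracellular protein that binds TIE1, from 91.7 ± 30.4 to 260 ± 140 CPM (unadjusted p = 0.00222). Vegfd went from 16.2 ± 6.39 to 49.3 ± 37.5 CPM, Vegfc from 1.69 ± 0.183 to 3.32 ± 0.722 CPM, and the phosphatase gene Ptprb from 42.3 ± 15.0 to 84.9 ± 38.3 CPM. Averaged over genotypes, Vegfc (1.03, edgeR adjusted p = 0.0203), Svep1 (1.32, 0.0251) and Flt4 (1.15, 0.0253) rose. All 3 calls were lost without any 1 of Tem1WT/WT sham replicates 1 and 2, Tem1lacZ/lacZ sham replicate 2 and Tem1lacZ/lacZ traction replicates 2 and 3, and those of Svep1 and Flt4 also without Tem1lacZ/lacZ sham replicate 3, with edgeR adjusted p from 0.0503 to 0.073. Those fits called between 0 and 357 of all genes, against 1835 with all 12 libraries. In the comparison over all 12 libraries none of 5 tested lymphatic endothelium markers was called (median 0.45).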
